A study of Homo sapiens with 18 samples.

Results

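The polypyrimidine tract binding proteins PTBP1, PTBP2 and PTBP3 were followed through RNA-seq of 2 human bladder cancer lines, UM-UC-3 and T24, in which ACAT1, the mitochondrial acetyl-CoA acetyltransferase, had been knocked down. Both are established cell lines. The members are the genes of those names, 3 of 39496 genes in the count table, and all 3 were among the 20144 genes that passed the filter on low counts. They were taken as a family of paralogs, chosen by the rise of PTBP2 counts after knockdown, which was among the larger ones, so the values of the 3 members in the knockdown comparisons are given as a description, without a test. Each line had received a control siRNA (siNC), siACAT1-1 or siACAT1-2, the last pair both directed at ACAT1, which made 6 groups of 3 libraries and 18 libraries in all. Every library came from cells transfected with Lipofectamine, and each cell line had its own medium, MEM for UM-UC-3 and RPMI-1640 for T24, so the medium and the cell line cannot be told apart. The labels call the 3 libraries of a group biological replicates. Nothing in the sources used here says that they came from separate cultures, and p values measure the spread between these libraries, which may be technical.

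PTBP proteins bind pyrimidine-rich RNA, above all UCUU and CUCUCU motifs, through 4 RNA recognition motifs, and mostly keep the exons beside their binding sites out of the mature mRNA. PTBP1 is found in most dividing cells, PTBP2 (nPTB or brPTB) mainly in neurons and testis, and PTBP3 (ROD1) in haematopoietic and many other cells. The members regulate each other by splicing. PTBP1 promotes the skipping of a short exon in the transcripts of PTBP2 and of PTBP1 itself, the reading frame is lost, and the transcript is degraded by nonsense-mediated decay. For that reason a fall of PTBP1 is known to let PTBP2 mRNA build up, as happens when neural precursors become neurons.

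The exon of this switch in PTBP1 and PTBP2 is shown because the cross-regulation rests on it, and the matching exon of PTBP3 is shown for comparison. Each sequence below was read from the GRCh38 genome and runs 5′ to 3′ on the strand of the gene, with the last 100 bases of the upstream intron in lower case and the exon of 34 bases in capitals. The exon is exon 11 of PTBP1 (chr19:807869-807902, plus strand), exon 10 of PTBP2 (chr1:96806419-96806452, plus strand) and exon 10 of PTBP3 (chr9:112231380-112231413, minus strand).
PTBP1: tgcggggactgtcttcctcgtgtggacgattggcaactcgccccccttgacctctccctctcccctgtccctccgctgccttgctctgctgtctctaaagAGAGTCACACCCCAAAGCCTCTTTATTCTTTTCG
PTBP2: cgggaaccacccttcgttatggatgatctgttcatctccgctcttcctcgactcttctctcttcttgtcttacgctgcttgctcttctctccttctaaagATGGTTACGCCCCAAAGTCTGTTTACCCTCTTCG
PTBP3: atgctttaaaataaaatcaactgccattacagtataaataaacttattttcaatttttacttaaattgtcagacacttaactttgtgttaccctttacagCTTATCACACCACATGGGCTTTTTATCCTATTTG

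The intron stretch before the PTBP2 exon held the letters TCTT (the DNA spelling of UCUU, searched on the strand of the gene with overlaps allowed) 6 times, that of PTBP1 held them 1 time and that of PTBP3 0 times. Over the 100 bases before 162908 internal exons of canonical transcripts, 62.2% held at least 1 TCTT and 0.17% held 6 or more. Pyrimidines made up 73.0% of the stretch in PTBP2, 69.0% in PTBP1 and 56.0% in PTBP3, against a median of 55.0% over all internal exons. A share as high as that of PTBP2 was seen before 1.61% of internal exons and one as high as that of PTBP1 before 4.27%. The exon itself was alike in the 3 genes, with 25 of 34 bases identical between PTBP1 and PTBP2, 22 between PTBP1 and PTBP3, and 21 between PTBP2 and PTBP3. In GENCODE v44, 6 PTBP2 transcripts have the facing splice sites of both neighbouring exons but lack this exon. Of these, 3 are annotated as targets of nonsense-mediated decay. Whether another exon lies between those splice sites was not checked. The exon is included in 12 transcripts, of which 1 carries that annotation. For PTBP1 there were 2 transcripts without the exon, both annotated as decay targets, and 8 with it, of which 2 were annotated so, and for PTBP3 there were 0 without and 5 with it. A match of letters is a description and not a binding site, and the counts analysed here were made per gene, so the inclusion of the exon was not measured.

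PTBP1 lies on chromosome 19 (797075 to 812327, plus strand), PTBP2 on chromosome 1 (96721665 to 96823738, plus strand) and PTBP3 on chromosome 9 (112217716 to 112333667, minus strand), all in GRCh38. The deposited exon models had 6883, 12937 and 8239 bases. The reference proteins of 557, 531 and 524 residues were 76.0% identical between PTBP1 and PTBP2, 78.7% between PTBP1 and PTBP3 and 74.2% between PTBP2 and PTBP3. In spite of this likeness the 3 exon models shared no stretch of 30 bases. PTBP1 shared 65 of its 6622 stretches of 30 bases with its pseudogene PTBP1P, and 0 stretches of 50 bases.

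The libraries held 25163490 to 34417230 counted reads, with a median of 28613163. The targeted gene followed the labels: ACAT1 was at 46.0 ± 1.68 RPKM (reads per kilobase of exon scaled to the reads counted in the library; SD, n = 3) in UM-UC-3 siNC cells, 3.05 with siACAT1-1 and 2.16 with siACAT1-2, and at 16.2 ± 1.40 in T24 siNC cells, 1.29 and 0.792. Of the epithelial markers, KRT8 ranged from 27.8 to 45.3 RPKM in UM-UC-3 and from 94.7 to 435 RPKM in T24, and KRT18 was at 96.6 RPKM or more in every library. The summed level of the 15 urothelial and epithelial markers in the table did not overlap with siNC for either siRNA in UM-UC-3, at 166 to 211 RPKM in siNC, 131 to 144 with siACAT1-1 and 136 to 155 with siACAT1-2. In T24 the groups overlapped (429 to 973, 302 to 769 and 397 to 1101 RPKM). The sum in UM-UC-3 was made up mainly of KRT18 (96.6 to 161 RPKM) and KRT8, so it says little about the other markers. Of the 11 markers tested, 5 had a log2 fold change above 0 in UM-UC-3 with siACAT1-1 and 4 with siACAT1-2. In the mean of the 4 comparisons, 0 of 11 markers tested were called without the replicate block described below (0.223% of all genes called, edgeR). With the block the 3 keratins KRT7, KRT8 and KRT18 were called as lower, where 12.4% of all genes were called. By siRNA, with the block, 3 markers were lower with siACAT1-1 (17.6% of all genes called) and 0 were called with siACAT1-2 (11.3%). With siACAT1-2 in single lines, 2 were lower in UM-UC-3 (1.36% of all genes called) and 1 was higher in T24 (8.48%). The part of these markers in the family's values was not tested. The urothelial genes UPK1B and UPK3A, the epithelial cadherin CDH1 and the basal keratin KRT5 were at or near 0 in both lines. PTPRC and CD3E, which mark immune cells, were at or near 0. Libraries with the same replicate number deviated together within a cell line, and the numbers 3 of UM-UC-3 and 2 of T24 stood apart from the other libraries of their line in earlier results of these data. A second model that also held the replicate number of each line as a term (the replicate block) is therefore given beside the first where a call depends on it.

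PTBP1 was the most abundant member by RPKM in all 18 libraries. In UM-UC-3 siNC libraries 1, 2 and 3 it was at 6.84, 9.62 and 5.72 RPKM (mean 7.39 ± 2.01, SD, n = 3), and in T24 siNC libraries at 8.74, 7.75 and 8.19 RPKM (8.23 ± 0.496). With siACAT1-1 it was at 6.64, 7.58 and 5.23 RPKM in UM-UC-3 (6.48 ± 1.18) and at 7.64, 8.38 and 6.19 RPKM in T24 (7.40 ± 1.11). With siACAT1-2 it was at 5.17, 4.90 and 3.45 RPKM in UM-UC-3 (4.51 ± 0.923) and at 4.33, 5.77 and 3.93 RPKM in T24 (4.68 ± 0.969). All siACAT1-2 libraries thus lay below all siNC libraries of the same line, whereas the siACAT1-1 libraries overlapped with siNC in both lines. The share of all genes whose libraries separate in this way was not counted, for this or the other separations given, so they are descriptions. In order of their means the groups ran from T24 siNC over T24 siACAT1-1, UM-UC-3 siNC and UM-UC-3 siACAT1-1 to the siACAT1-2 groups, and the means of the upper 4 groups differed by less than the SD of UM-UC-3 siNC, as did the means of the siACAT1-2 groups by less than either SD. In bulk RNA, fewer cells that express a gene and less of its RNA per cell cannot be told apart. Against the siNC library of the same number, PTBP1 was lower in 6 of 6 siACAT1-2 libraries (ratio 0.480 to 0.756, median 0.557) and in 5 of 6 siACAT1-1 libraries (0.756 to 1.08, median 0.894). The library numbered 3 had the lowest PTBP1 level of its group in all 3 UM-UC-3 groups.

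PTBP2 was the rarest member by RPKM in the control libraries. It was at 1.05, 1.40 and 1.04 RPKM in UM-UC-3 siNC libraries 1, 2 and 3 (1.16 ± 0.207) and at 0.413, 0.324 and 0.375 RPKM in T24 siNC libraries (0.371 ± 0.0450). With siACAT1-1 it was at 1.31, 1.52 and 1.16 RPKM in UM-UC-3 (1.33 ± 0.183), overlapping with siNC, and at 1.15, 0.402 and 0.783 RPKM in T24 (0.778 ± 0.373), where library 2 lay inside the siNC range. With siACAT1-2 it was at 2.60, 2.12 and 2.12 RPKM in UM-UC-3 (2.28 ± 0.274) and at 1.62, 0.977 and 1.80 RPKM in T24 (1.46 ± 0.431). All siACAT1-2 libraries lay above all siNC libraries of the same line, with the same libraries separated as for PTBP1 but on the other side. Against the siNC library of the same number, PTBP2 was higher in 6 of 6 siACAT1-2 libraries (ratio 1.52 to 4.79, median 2.75) and in 6 of 6 siACAT1-1 libraries (1.09 to 2.78, median 1.24). UM-UC-3 siACAT1-2 had the highest group mean and T24 siNC the lowest, with T24 siACAT1-1 next to it, and the means of T24 siACAT1-2, UM-UC-3 siACAT1-1 and UM-UC-3 siNC in between differed by less than the SD of T24 siACAT1-2. In T24, library 2 had the lowest PTBP2 level of each of the 3 groups. PTBP2 rested on 118 to 960 counted reads per library, against 678 to 2124 for PTBP1 and 320 to 580 for PTBP3.

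PTBP3 moved over a narrower range. It was at 1.86, 1.97 and 1.65 RPKM in UM-UC-3 siNC libraries (1.83 ± 0.166) and at 2.05, 1.83 and 2.06 RPKM in T24 siNC libraries (1.98 ± 0.125). With siACAT1-1 it was at 1.83, 1.70 and 2.08 RPKM in UM-UC-3 (1.87 ± 0.194) and at 2.10, 2.05 and 1.91 RPKM in T24 (2.02 ± 0.0955), inside or close to the siNC range. With siACAT1-2 it was at 1.40, 1.35 and 1.45 RPKM in UM-UC-3 (1.40 ± 0.0460) and at 1.60, 1.41 and 1.57 RPKM in T24 (1.53 ± 0.0978), below every siNC library of the same line. Against the siNC library of the same number it was lower in 6 of 6 siACAT1-2 libraries (ratio 0.686 to 0.879, median 0.766) and in 3 of 6 siACAT1-1 libraries (0.861 to 1.26). The siNC and siACAT1-1 groups had the 4 highest means, in which neighbours differed by less than their SD, and the siACAT1-2 groups had the lowest.

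**Figure D1:**
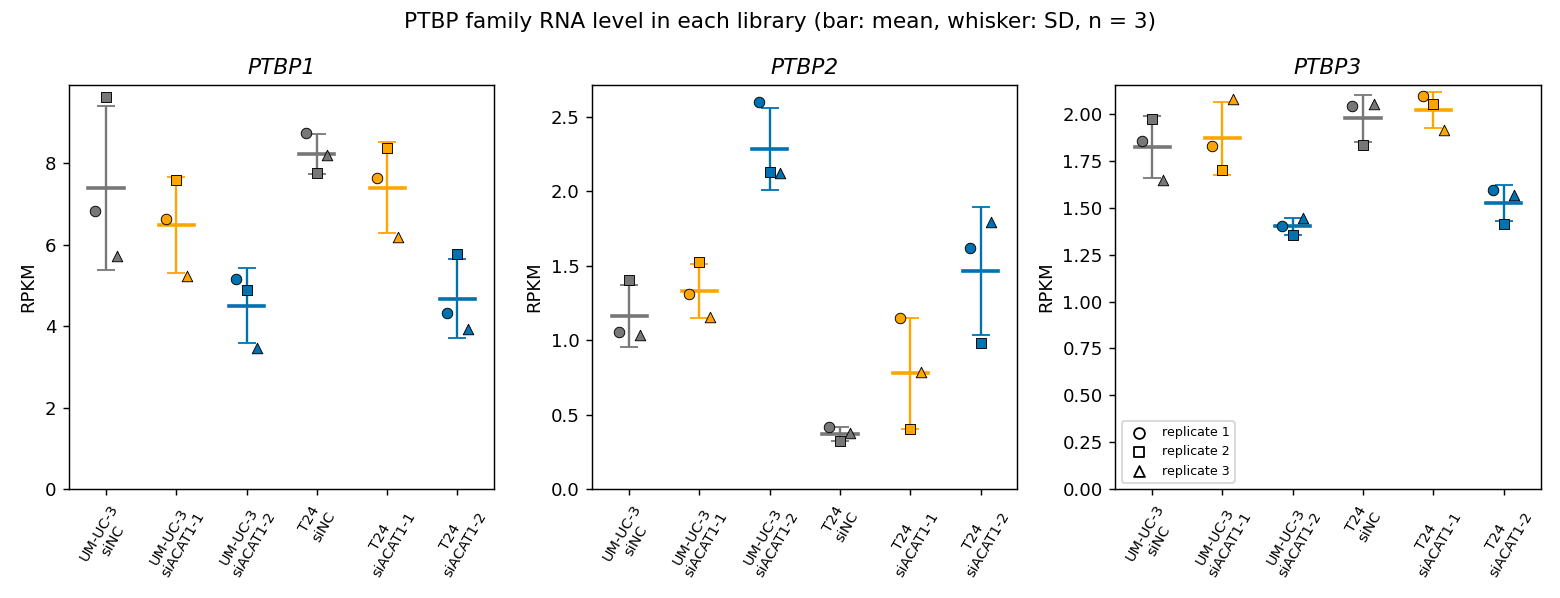
Level of PTBP1, PTBP2 and PTBP3 in RPKM (vertical axes from 0) in each of the 18 libraries, with the bar at the group mean, whiskers of 1 SD (n = 3) and marker shapes for the replicate number. In both lines the siACAT1-2 libraries lie below the siNC libraries for PTBP1 and PTBP3 and above them for PTBP2, while siACAT1-1 libraries overlap with siNC in all panels.

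The fitted changes from the counts gave the same picture on the log2 scale. With siACAT1-2 the log2 fold change of PTBP2 against siNC was 0.93 (SE 0.32) in UM-UC-3 and 2.00 (SE 0.33) in T24, that of PTBP1 was −0.75 (SE 0.23) and −0.81 (SE 0.23), and that of PTBP3 was −0.42 (SE 0.15) and −0.36 (SE 0.15). With siACAT1-1 the values were smaller, 0.19 (SE 0.32) and 1.09 (SE 0.33) for PTBP2, −0.19 and −0.15 (SE 0.23 each) for PTBP1, and 0.03 and 0.04 (SE 0.15 each) for PTBP3. The sign of the UM-UC-3 siACAT1-1 value of PTBP1 rested on siNC library 2, without which it was 0.057. The T24 siACAT1-1 value of PTBP2 depended on single libraries and was 0.65 without library 1 of that group and 1.40 without library 2. Over the 4 comparisons the mean was 1.05 (SE 0.21) for PTBP2, −0.48 (SE 0.14) for PTBP1 and −0.18 (SE 0.093) for PTBP3. Ordered by this mean from the largest rise, PTBP2 had rank 313 of 20144 genes. By siACAT1-2 its rank was 182 in the mean of both lines, 152 in T24 and 700 in UM-UC-3. By siACAT1-1 it was 1141 in the mean of both lines, 557 in T24 and 5344 in UM-UC-3. These ranks come from the values that chose PTBP2. Without the 6 libraries that stood apart, the siACAT1-2 mean over both lines was 1.52 for PTBP2, −0.87 for PTBP1 and −0.43 for PTBP3, against 1.47, −0.78 and −0.39 with all libraries. The siACAT1-1 and siACAT1-2 comparisons of a line share its siNC libraries, so their values are not independent.

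**Figure D2:**
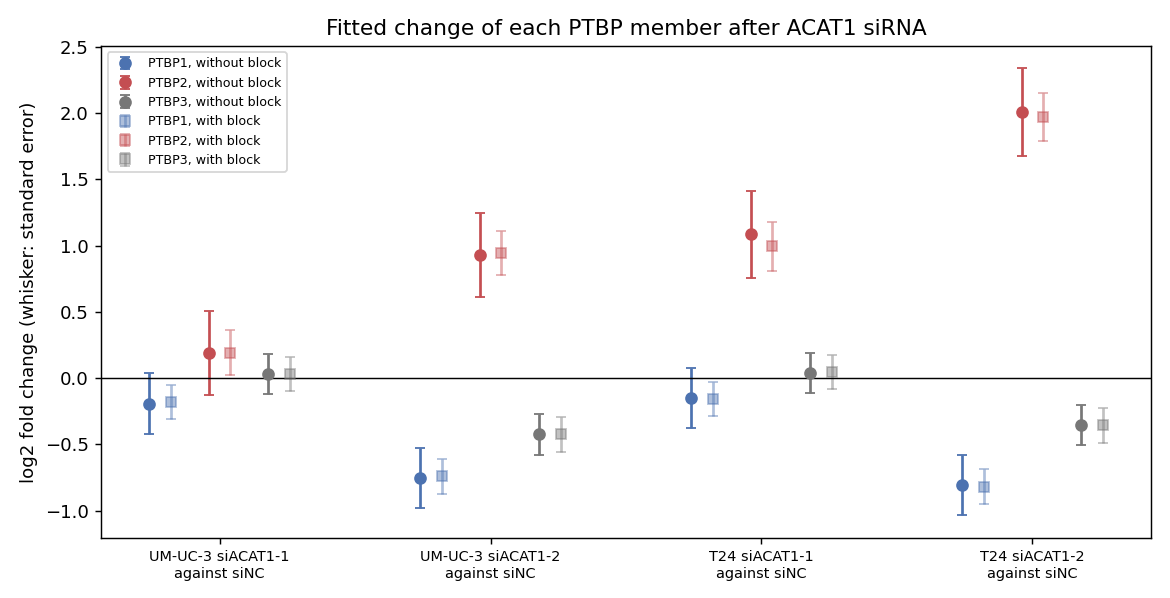
Fitted log2 fold change (vertical axis, whiskers of 1 standard error) of each member for each siRNA against siNC of its cell line, from the model without the replicate block (circles) and with it (squares). PTBP2 is above 0 and PTBP1 below 0 in all 4 comparisons (PTBP1 in UM-UC-3 with siACAT1-1 is at 0.057 without siNC library 2), and the block narrows the whiskers while leaving the values close to those without it.

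RPKM is scaled to the length of the deposited exon models (6883, 12937 and 8239 bases for PTBP1, PTBP2 and PTBP3). The lengths of the transcripts expressed were not measured, so the order of the members and their shares depend on these models. On this scale PTBP2 held a larger share of the family in every siACAT1-2 library than in any siNC library of its line, and PTBP1 a smaller one. PTBP2 accounted for 10.8, 10.8 and 12.3% of the summed RPKM of the 3 members in UM-UC-3 siNC libraries, for 13.4, 14.1 and 13.7% with siACAT1-1 and for 28.3, 25.4 and 30.2% with siACAT1-2. In T24 its share was 3.69, 3.27 and 3.53% in siNC libraries, 10.5, 3.71 and 8.81% with siACAT1-1 and 21.5, 12.0 and 24.6% with siACAT1-2. The PTBP2 share was thus higher in every ACAT1 siRNA library than in every siNC library of its line, by little in UM-UC-3 siACAT1-1 and in library 2 of T24 siACAT1-1. PTBP1 made up 68.1 to 74.0% of the family in UM-UC-3 siNC libraries and 49.2 to 58.5% with siACAT1-2. In T24 it made up 77.1 to 78.2% in siNC libraries and 53.9 to 70.7% with siACAT1-2, where library 2 had the highest share. The ratio of PTBP2 to PTBP1 went from 0.0417 in library 2 of T24 siNC to 0.614 in library 3 of UM-UC-3 siACAT1-2. The summed RPKM of the family was between 7.02 and 13.0, with siACAT1-2 libraries at 7.02 to 9.17 and siNC libraries at 8.40 to 13.0. These shares were formed from the values that chose PTBP2 and are a description.

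**Figure D3:**
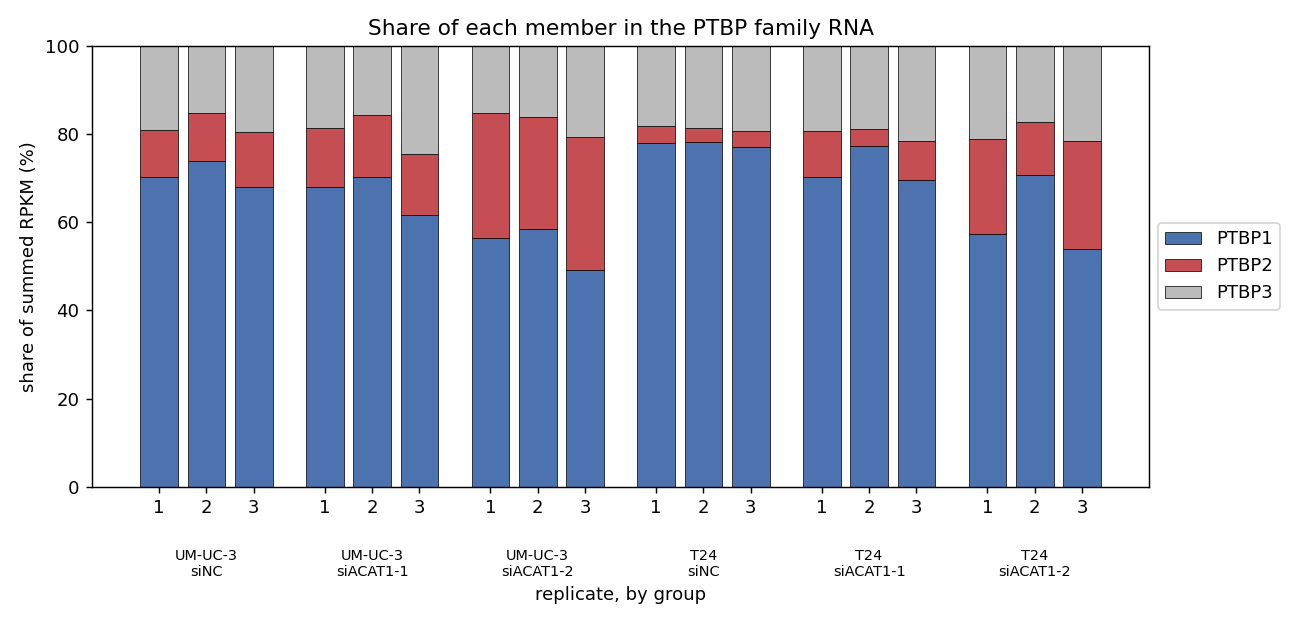
Share of PTBP1, PTBP2 and PTBP3 in their summed RPKM (stacked bars to 100%) in each library, by group and replicate number. In UM-UC-3 the PTBP2 segment reaches 25.4 to 30.2% with siACAT1-2 and 10.8 to 12.3% in the siNC libraries. In T24 it reaches 12.0 to 24.6% and 3.27 to 3.69%.

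Across the 9 libraries of a cell line, PTBP1 and PTBP2 correlated with a Pearson r of −0.417 (UM-UC-3) and −0.802 (T24), PTBP1 and PTBP3 one of 0.695 and 0.749, and PTBP2 and PTBP3 one of −0.760 and −0.400. These are descriptions over libraries that share siRNAs and replicate numbers and fall into groups. Within most groups PTBP1 and PTBP2 did not move apart. The libraries had the same order for both genes in every UM-UC-3 group and in T24 siNC. Libraries 2 and 3 of UM-UC-3 siACAT1-2 were almost equal for PTBP2. In UM-UC-3 siNC and UM-UC-3 siACAT1-1, library 2 had the highest level of both genes and library 3 the lowest. In T24 siACAT1-1 and T24 siACAT1-2, library 2 had the highest PTBP1 and the lowest PTBP2.

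**Figure D4:**
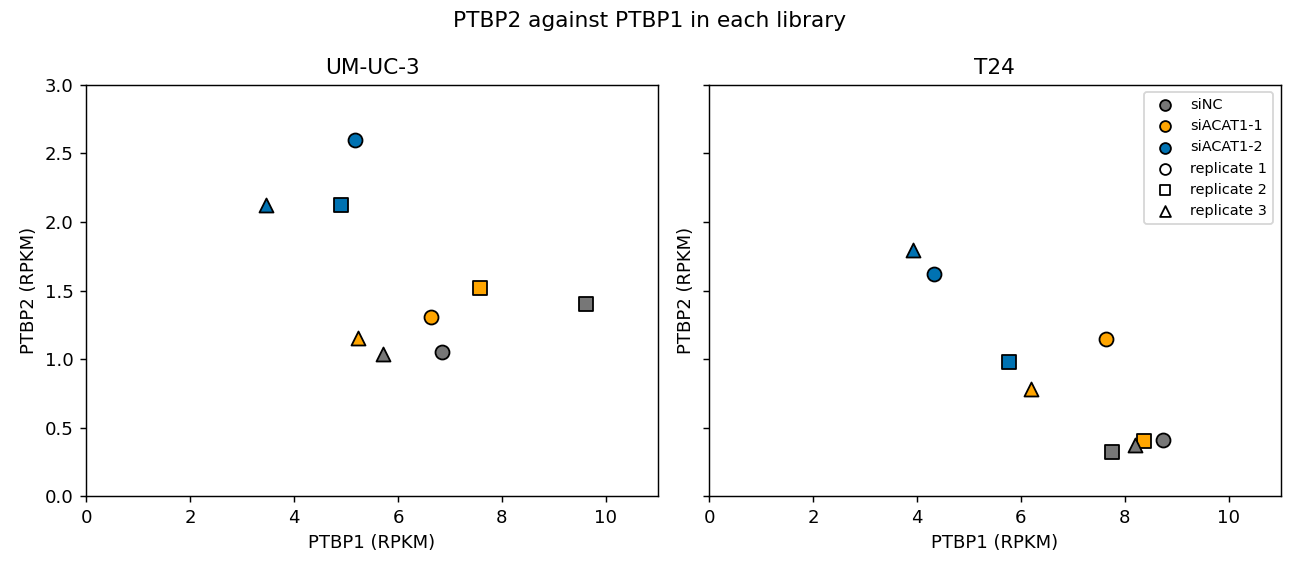
PTBP2 (vertical axis, RPKM) against PTBP1 (horizontal axis, RPKM) in each library of UM-UC-3 (left) and T24 (right), coloured by siRNA and shaped by replicate number. The siACAT1-2 libraries lie at the upper left of both panels, with PTBP2 at 0.977 to 2.60 RPKM. In every UM-UC-3 group and in T24 siNC the highest PTBP1 goes with the highest PTBP2. In T24 siACAT1-1 and T24 siACAT1-2 it goes with the lowest.

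The control libraries of the lines were then compared. PTBP2 was 3.22-fold higher in UM-UC-3 siNC than in T24 siNC cells (log2 fold change 1.69, SE 0.33), and every UM-UC-3 siNC library was above every T24 siNC library. These siNC libraries were also the controls of the knockdown comparisons in which PTBP2 was chosen, so its value is a description and is given with no test. PTBP1 and PTBP3 did not pass, with log2 fold changes of −0.11 (95% interval −0.55 to 0.34, adjusted p = 0.726) and −0.07 (95% interval −0.37 to 0.23, adjusted p = 0.730). Of all genes tested, 44.3% were called in this comparison (edgeR quasi-likelihood test with Benjamini-Hochberg adjustment). Leaving out each library in turn gave PTBP2 values of 1.52 to 1.82. The siACAT1-2 mean of PTBP2 in T24 (1.46 RPKM) differed from its siNC mean in UM-UC-3 (1.16 RPKM) by less than the SD of the T24 group. Among splicing regulators of neural tissue, named here after their values were seen, the order of the lines was mixed. NOVA1 had 52 to 154 counted reads per UM-UC-3 library and 0 in all T24 libraries, NOVA2 had 14 to 70 and 0 to 2, and SRRM3, an activator of microexons, had 124 to 339 and 16 to 70. RBFOX3 had 0 to 2 reads per UM-UC-3 library and 1 to 12 per T24 library, and SRRM4, the neural relative of SRRM3, was at 0 to 2 reads in both lines.

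The 2 ACAT1 siRNAs were then compared with each other, from the same libraries as the knockdown comparisons. PTBP1 and PTBP3 entered as paralogs of PTBP2, which was chosen by its rise in those libraries. Their p values here and in the difference between the lines below are therefore not independent of that choice. PTBP1 was lower with siACAT1-2 than with siACAT1-1 by a log2 fold change of −0.61 (SE 0.16, mean of both lines, adjusted p = 0.0539, edgeR quasi-likelihood test), which missed the threshold of 0.05, and passed with the replicate block (−0.61, adjusted p = 1.24e-04). PTBP3 was lower by −0.42 (SE 0.11, adjusted p = 0.0472, edgeR), and at 0.00257 with the block. Of all genes, 2.56% were called in this comparison without the block and 20.6% with it. The call of PTBP3 without the block was close to the threshold, and its adjusted p was above it in 15 of 18 fits with a single library left out (up to 0.130). PTBP2, with no test, was higher with siACAT1-2 by 0.83 (SE 0.23).

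Within each line the siRNA difference had the same sign. In UM-UC-3 it was −0.56 for PTBP1 (SE 0.23, adjusted p = 0.499, edgeR) and −0.45 for PTBP3 (SE 0.15, adjusted p = 0.384, edgeR), with 0.0496% of all genes called. With the block both passed (adjusted p = 0.0116 and 0.0353, edgeR), where 8.15% of all genes were called. In T24 it was −0.66 for PTBP1 (SE 0.23, adjusted p = 0.207, edgeR) and −0.39 for PTBP3 (SE 0.15, adjusted p = 0.264, edgeR), with 0.968% of all genes called, and again both passed with the block (0.00205 and 0.0430), where 14.7% were called. PTBP2 differed by 0.74 in UM-UC-3 and by 0.92 in T24, with no test. ACAT1 itself was lower with siACAT1-2 than with siACAT1-1 in both lines, with a log2 fold change of −0.62 over both lines with the block (adjusted p = 8.16e-04, edgeR). Whether the depth of the knockdown or the sequence of the siRNA goes with the family's values cannot be told apart in this design, which has 1 siRNA of each kind.

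The knockdown effect was also compared between the lines (UM-UC-3 minus T24, mean of both siRNAs). The difference was 0.0041 for PTBP1 (SE 0.28, 95% interval −0.54 to 0.55) and −0.04 for PTBP3 (SE 0.19, 95% interval −0.41 to 0.33), each with an adjusted p of 1.00 in edgeR. With this number of libraries, differences of any size inside these intervals remained compatible with the data. For PTBP2, with no test, it was −0.98 (SE 0.39), the change being larger in T24, where its control level was lower. Of 20144 genes 0% were called in this comparison in edgeR, with 517 at an unadjusted p under 0.05, 1 gene in DESeq2 and 0.104% of genes with the block.

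Genes whose exons PTBP proteins are known to regulate were read next, at the level of gene expression. The list held 20 genes, such as PKM, SRC, ACTN1, TPM1, CTTN and NUMB, and all were tested. Further genes of the list as first drawn up are not reported here and do not enter its counts. Without the block 0 of 20 were called in the mean of the 4 knockdown comparisons in edgeR (0.223% of all genes were called), with 2 at an unadjusted p under 0.05 and 1 called in DESeq2. Their median log2 fold change was 0.17, with 16 of 20 above 0, against −0.0013 over all genes. The comparisons differed, with medians of 0.08 in UM-UC-3 siACAT1-2 (17 of 20 above 0), 0.24 in T24 siACAT1-1 (16 of 20) and 0.36 in T24 siACAT1-2 (16 of 20), and one below 0 in UM-UC-3 siACAT1-1 (−0.07, 6 of 20 above 0). With the block 4 of 20 were called, 3 higher and 1 lower, against 12.4% of all genes. CTTN, the actin-binding cortactin, had a log2 fold change of 0.44 in the model without the block (SE 0.096, adjusted p = 0.0740, and 2.06e-04 with the block, edgeR). It was at 248 ± 20.1 RPKM in UM-UC-3 siNC, 317 ± 10.9 with siACAT1-1 and 303 ± 2.78 with siACAT1-2, with no overlap of either with siNC, and at 165 ± 37.0 RPKM in T24 siNC, 257 ± 2.58 and 230 ± 53.8 (SD, n = 3). In T24 the siACAT1-2 libraries (from 189 RPKM) overlapped with siNC (up to 208 RPKM) and the siACAT1-1 libraries did not. RTN4, the endoplasmic reticulum protein Nogo, had 0.34 (SE 0.11, adjusted p = 0.245, and 0.00430 with the block), and NUMB, an inhibitor of Notch signalling, had 0.22 with the block (adjusted p = 0.0484). CASP2, a caspase with a PTBP-regulated exon, had −0.38 (SE 0.20, adjusted p = 0.513, and 0.0357 with the block). TPM2, the beta tropomyosin, had 0.27 and did not pass in either model (adjusted p = 0.691 and 0.132).

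Split by siRNA, 0 of the 20 target genes were called without the block with siACAT1-1 (5 at an unadjusted p under 0.05, 2 in DESeq2, 0.427% of all genes called in edgeR) and 0 with siACAT1-2 (5, 1, and 0.581% of all genes). With the block, siACAT1-1 called 5 of them against 17.6% of all genes, with CTTN, NUMB and RTN4 higher and BIN1 and CASP2 lower. siACAT1-2 called 7 of them against 11.3% of all genes, all higher: TPM2 (0.54), TPM1 (0.49), CTTN (0.37), BIN1 (0.33), RTN4 (0.32), FGFR1 (0.29) and ACTN1 (0.25, log2 fold changes, edgeR with the block). TPM1 and TPM2 encode tropomyosins, ACTN1 an actin crosslinker and BIN1 a protein that shapes membranes. FLNA, another actin crosslinker of the list, had −0.07 with siACAT1-2 and did not pass (adjusted p = 0.548), and TPM1 and TPM2 had −0.11 each with siACAT1-1 and did not pass (0.450 and 0.508, edgeR with the block). BIN1 was lower with siACAT1-1 (−0.26) and higher with siACAT1-2 (0.33). Gene-level counts do not show which exons these transcripts carried.

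**Figure D5:**
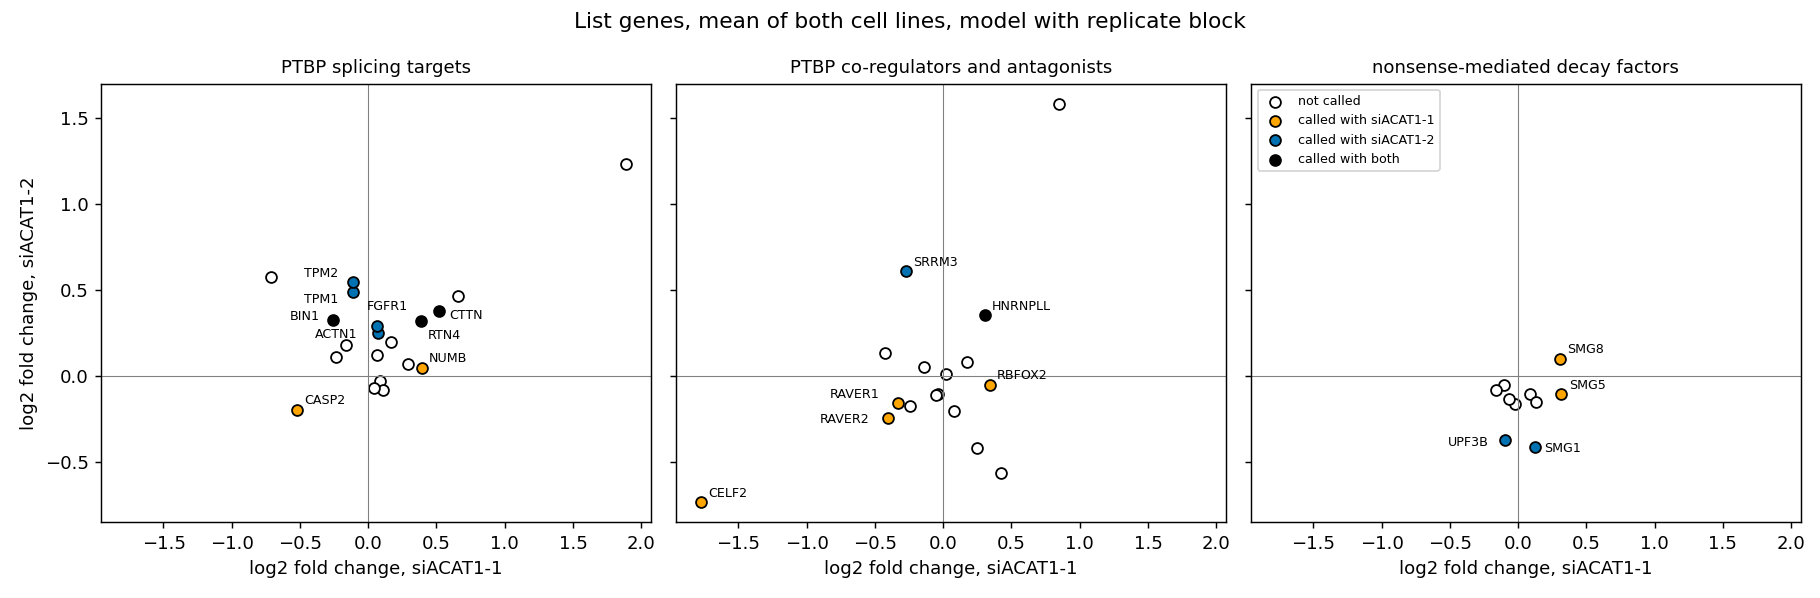
Log2 fold change with siACAT1-2 (vertical axis) against that with siACAT1-1 (horizontal axis), each the mean of both cell lines in the model with the replicate block, for the tested genes of 3 lists. Named points passed an adjusted p of 0.05 with at least 1 siRNA, and CTTN, RTN4, BIN1 and HNRNPLL passed with both.

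The partners and antagonists of PTBP made up the second list of 20 genes, of which 17 were tested and RBFOX1, RBFOX3 and SRRM4 were too low. In the mean of the 4 comparisons 0 of 17 were called without the block in edgeR (3 at an unadjusted p under 0.05, 0 in DESeq2), the median was −0.068 and 6 of 17 were above 0. With the block 3 of 17 were called, where 12.4% of all genes were. RAVER1 and RAVER2, the raver proteins that serve PTBP1 as co-repressors, were both lower, with −0.24 (SE 0.13, adjusted p = 0.532, and 0.0352 with the block) and −0.34 (SE 0.15, adjusted p = 0.425, and 0.0310 with the block). HNRNPLL, a splicing repressor related to PTBP, was higher, with 0.33 (SE 0.14, adjusted p = 0.395 in edgeR, and 0.0143 with the block). RAVER1 was at 3.05 ± 0.166 RPKM in T24 siNC, 2.19 ± 0.170 with siACAT1-1 and 2.57 ± 0.154 with siACAT1-2, and at 2.44 ± 0.462, 2.14 ± 0.422 and 2.37 ± 0.519 in UM-UC-3, where the groups overlapped. QKI, which regulates many of the same exons, had −0.21 and did not pass (adjusted p = 0.553, and 0.106 with the block). By siRNA, 0 were called without the block with either (4 and 2 at an unadjusted p under 0.05, 0 in DESeq2 for each). With the block 5 were called with siACAT1-1, namely RAVER1, RAVER2 and CELF2 lower and HNRNPLL and RBFOX2 higher (17.6% of all genes called), and 2 with siACAT1-2, HNRNPLL and SRRM3, both higher (11.3% of all genes called). CELF2 rested on at most 16 counted reads in a library.

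The factors of nonsense-mediated decay, the pathway that removes PTBP2 transcripts lacking exon 10, were the third list. All 10 were tested and 0 were called without the block in edgeR in the mean of the 4 comparisons (0 at an unadjusted p under 0.05, 0 in DESeq2), with a median of −0.088 and 2 of 10 above 0. With siACAT1-1 alone 5 of 10 were above 0 in the mean of both lines, and 8 of 10 in UM-UC-3 (median 0.096). With the block UPF3B, which links the exon junction complex to the decay factors, was the only factor called, 1 of 10 where 12.4% of all genes were called, with −0.24 (SE 0.14, adjusted p = 0.571, and 0.0122 with the block). The deposited exons of UPF3B reach beyond the gene in GENCODE v44 into small pseudogene loci, so the source of its reads is uncertain. UPF3B was at 102 to 301 RPKM, while UPF3A of the same list was at 71.1 to 112 and the other factors were lower. SMG8 had 0.21, SMG1, the kinase that phosphorylates UPF1, had −0.13 and SMG6, the endonuclease of the pathway, had −0.12, and they did not pass in either model (adjusted p with the block 0.0864, 0.255 and 0.344, edgeR). By siRNA, 0 were called without the block with either (1 and 2 at an unadjusted p under 0.05, 1 and 0 in DESeq2). With the block SMG5 (0.32) and SMG8 (0.31) were called as higher with siACAT1-1, and SMG1 (−0.41) and UPF3B (−0.38) as lower with siACAT1-2, where 9 of 10 factors were below 0. These 2 of 10 with each siRNA stand beside 17.6% and 11.3% of all genes. SMG1 was at 2.90 ± 0.214 RPKM in UM-UC-3 siNC and 2.32 ± 0.410 with siACAT1-2, and at 2.51 ± 0.293 and 1.86 ± 0.584 RPKM in T24. The part of these factors in the PTBP2 values was not tested.

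PTBP2 is at its highest in neurons, so 12 neuronal markers were read beside it. RBFOX3, SYN1, STMN2, ELAVL3, ELAVL4, DCX and NEFL were at or below 0.0576 RPKM in all libraries. MAP2 reached 0.0189 RPKM in UM-UC-3 and lay between 0.0654 and 1.03 in T24, SYT1 reached 0.528 and 0.733, and GAP43 reached 0.187 and 0.0762. The sum of the list was made up mainly of the tubulin TUBB3 (2.85 to 10.2 RPKM) and, in UM-UC-3, of the synaptic protein SNAP25 (0.940 to 5.84 RPKM). The sum ranged from 8.94 to 11.7 RPKM in UM-UC-3 siNC libraries, from 5.36 to 12.4 with siACAT1-1 and from 9.87 to 16.7 with siACAT1-2. In T24 it ranged from 6.28 to 10.9, from 3.69 to 8.59 and from 4.16 to 10.7 RPKM, so that the groups overlapped in both lines. Of the 12 markers 4 were tested, and without the block their adjusted p lay between 0.317 and 1.00 with siACAT1-1 and between 0.733 and 0.979 with siACAT1-2 (edgeR). With the block SNAP25 was higher with siACAT1-2 (0.58, adjusted p = 0.0250), and SYT1 (−0.83) and TUBB3 (−0.43) were lower with siACAT1-1 (adjusted p = 0.00433 and 0.0160, edgeR). These calls were 1 of 4 where 11.3% of all genes were called and 2 of 4 where 17.6% were.

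The genes whose pattern was most like that of each member were found by the Pearson r of log2 CPM (library-scaled counts) over the 18 libraries, centred on the mean of each cell line, among 12904 genes. For PTBP1 these were BRMS1L (r = 0.951), ABCE1 (0.922), RP11-317N8.5 (0.921), GINS3 (0.913) and NIPA2 (0.912). For PTBP2 they were MYL12B (r = 0.911), SNX17 (0.908), RPN2 (0.899), CTDP1 (0.892) and RAB12 (0.890), all of them with smaller changes than PTBP2 itself (0.39 to 0.44 with siACAT1-2 on the log2 scale). For PTBP3 they were STYX (r = 0.906), CCT2 (0.896), NUS1 (0.887), ILKAP (0.877) and GXYLT1 (0.872). BRMS1L was also the most similar gene to PTBP1, and MYL12B to PTBP2, by Spearman's rho, whereas CCT2 ranked 34th for PTBP3. The libraries share cell lines, siRNAs and replicate numbers, and the likeness is a description.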

How the data were processed

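Stranded RNA-seq libraries of 18 samples were analysed. Per the submitters' processing notes and the study's methods, the authors used Trimmomatic 0.36 for filtering, STAR 2.5.3 for mapping to GRCh38 and featureCounts (Subread 1.5.1) for counting reads on exons. They deposited raw counts per gene and RPKM values calculated from those counts. The strand setting, the handling of reads that map to several places, the collapse of duplicates and the annotation release are not given in the sources used here, and any of them could shift reads between paralogs or overlapping genes. The table had 2 gene names used for more than 1 gene, none of them a member.

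The test was edgeR 4.0.16 in R 4.3.3 (TMM, filterByExpr by group, 6 group coefficients, quasi-likelihood test), with p values adjusted by Benjamini-Hochberg over the 20144 genes tested and a threshold of 0.05. The contrasts set each siRNA against the siNC group of the line, and means over lines and siRNAs, the siRNA difference, the difference between lines and control UM-UC-3 against control T24 were further contrasts. Levels are the deposited RPKM. Alternatives were RLE size factors, DESeq2 1.42.0, limma 3.58.1 on log2(RPKM + 0.1), no filter, a pseudocount of 1, TMM-scaled levels per length, fewer libraries in the fit, and leaving out libraries. The model without the block was tested on simulated libraries that carried no effect of the replicate number. Of the genes given a log2 change of 1, 65% were called in the mean of the 4 comparisons. In the siRNA difference 54% were called, and 21% in control UM-UC-3 against control T24. Each simulation changed 200 genes, whereas 44.3% of all genes were called in the real comparison of the control lines. The 21% therefore does not describe the sensitivity of that comparison. The model with the block was not run on simulated libraries. Exons and introns were read from GRCh38 with GENCODE v44.

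Deviations from the group means correlated between libraries of the same number in UM-UC-3 (r 0.115 to 0.576, 9 pairs) and T24 (0.356 to 0.686, 9 pairs), against −0.545 to 0.269 and −0.567 to 0.210 for other numbers in the same line, and −0.327 to 0.211 for the same number in the other line. The numbers were therefore taken to pair the libraries within a line. This pairing comes from the data, since the labels do not say what a number marks. Each library counted as 1 replicate, since the 18 replicate pairs differed beyond sampling noise (chi-square over degrees of freedom from 11.8 to 174).

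The members, the lists and the libraries left out were chosen with earlier results of these data known, and the lists were written from memory. Some genes of the splicing target list are not reported here and were left out of its counts and medians after they had been computed. Named list genes were the 4 of each list with a mean log2 CPM of at least 1 and the largest absolute change in the mean of the 4 knockdown comparisons, genes called with the block were added, and likeness named 5 genes per member. Protein sequences were not printed.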

Additional observations from a re-analysis of the deposited data

How the results depend on the processing

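The PTBP2 value in control UM-UC-3 against control T24, given with no test, kept its direction under every alternative run (log2 fold change 1.52 to 1.82 when single libraries were left out, 1.67 in DESeq2 and 1.42 in limma). The replicate block could not be fitted for this contrast, because the numbers pair libraries only within a line. For siACAT1-2 minus siACAT1-1, PTBP1 passed with the replicate block (−0.61, adjusted p = 1.24e-04), RLE size factors (−0.62, 0.0493), no filter (−0.60, 0.0177), DESeq2 (−0.62, 0.0100) and without the 6 libraries that stood apart (−0.62, 0.0180), all adjusted p, and did not pass in limma (−0.59, 0.0648) or with only the libraries compared (−0.61, 0.0751). PTBP3 lost the call with no filter (−0.42, adjusted p = 0.326), without those 6 libraries (−0.35, 0.0921) and with only the libraries compared (−0.43, 0.0933), and kept it with the block, RLE, DESeq2 and limma. Leaving out single libraries gave −0.68 to −0.52 for PTBP1 (adjusted p 0.0400 to 0.137), which passed without UM-UC-3 siNC replicate 2 or 3 or T24 siACAT1-2 replicate 2. It gave −0.47 to −0.38 for PTBP3 (0.0474 to 0.130), which kept the call only without UM-UC-3 siACAT1-1 replicate 2, T24 siNC replicate 2 or T24 siACAT1-1 replicate 2.

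Within a line, the block brought PTBP1 (−0.56 in UM-UC-3, −0.66 in T24) and PTBP3 (−0.45 and −0.40) past the threshold, and without the 6 libraries PTBP1 passed in T24 (−0.73, adjusted p = 0.0481). The block changed no call of the difference between the lines for PTBP1 and PTBP3. The untested PTBP3 value in UM-UC-3 siACAT1-1 was −0.11 without the 6 libraries, and PTBP1 there was −0.36 to 0.057 with single libraries left out, the highest without UM-UC-3 siNC replicate 2. On log2 of group mean RPKM with a pseudocount of 1, the PTBP2 difference in T24 was 0.38 and 0.85.

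In the mean of the 4 comparisons 45 genes were called, 2500 with the block, 383 with no filter, 316 in DESeq2, 12 in limma, 512 without the 6 libraries and 6 to 143 with single libraries left out (fewest without T24 siNC replicate 1, most without T24 siNC replicate 2). For siACAT1-2 minus siACAT1-1, 515 genes were called, 4141 with the block, 884 with no filter, 1263 in DESeq2, 1687 without the 6 libraries, 235 with only the libraries compared and 165 to 900 with single libraries left out (fewest without UM-UC-3 siACAT1-1 replicate 1, most without T24 siACAT1-1 replicate 2). The splicing target list had 4 genes called with the block, 1 in DESeq2, 1 without the 6 libraries and 0 to 1 with single libraries left out (1 without T24 siNC replicate 2), the co-regulator list 3 with the block and the decay list 1 with the block. The cause of these changes was not tested. There were 3 libraries per group, and genes under the filter could not be judged.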
